A study of Homo sapiens with 2 samples.

Results

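The 41 genes described here are interferon-stimulated effectors, whose products act against viruses inside infected cells or adjust that response. They were taken from a given list of gene symbols, and every Affymetrix probe set annotated to a single one of them was used, which gave 79 probe sets. At least 1 probe set was found for each of the 41 genes, out of 19775 genes with a named probe set on the array. A pair of human renal carcinoma lines was compared with 1 array each. The first, 786-O, comes from a clear-cell tumour of the kidney and has a mutated allele of VHL, the recognition subunit of a ubiquitin ligase for HIF alpha proteins. The second was derived from 786-O, holds a functional VHL allele, and is named, from its label alone, the VHL-competent line in what follows. The series title places both in a study of EMCV, encephalomyocarditis virus. No infection, interferon treatment, time point or cell density is named in the labels for either array, nor whether the VHL-competent line is a single clone or a pool.

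Interferons are secreted proteins that bind receptors on the cell surface and act through JAK kinases, STAT proteins and IRF9 to switch on a large set of genes. Many of these genes carry the interferon-stimulated response element in their promoters, the binding sequence of STAT-IRF9 complexes and of other IRF proteins. Their products bind foreign RNA, block translation, degrade RNA, modify proteins with ISG15 or stop viruses at membranes. Some are present at a low level without any added interferon.

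Each value is an intensity in arbitrary units on a linear scale. Differences are log2(intensity + 16) in the VHL-competent line minus the same in 786-O. Folds are computed after the same addition of 16, so those of dim genes are understated. A gene was represented by its probe set with the highest mean log2 level and counted as measured where the brighter array exceeded a floor of 22.3, the median of all values on both arrays. Since each line had 1 array, no difference has a replicate check, a test or a p-value, and precision is limited by the number of arrays. The only spread available was that between probe sets of a gene, with an SD of 0.33 over 6436 genes and 0.25 over the 15 interferon-stimulated genes that had more than 1 probe set above the floor. This spread does not cover differences between cultures or arrays. VHL itself read 28.9 in 786-O and 15.96 in the VHL-competent line on 1 probe set, which runs against the name of that line, and was below the floor on the other. Where these probe sets lie relative to the introduced VHL sequence was not analysed here. The labels are thus not borne out by VHL, but values this near the floor cannot test them either. Every direction rests on the array labels alone.

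In RNA of whole cultures, more cells with a transcript and more transcript per cell cannot be told apart. Of the 41 genes 31 were measured and 10 lay below the floor on both arrays. Among the 31, 29 were higher and 2 lower in the VHL-competent line, and the share of all 13291 measured genes with any difference above 0 was 56.8%. IFI44, IFI44L, ISG15, IFIT2, IFIT1, OASL, IFI16 and IFIT3 were at least 2-fold higher there, in that order of difference. These 8 are 25.8% of the measured genes of the list, against 1.54% of all measured genes. None was at least 2-fold lower, against 2.18% of all measured genes. IFI44 was more than 4-fold higher, a size that 0.218% of all measured genes reached, and IFI44L reached it only through a 786-O value below the floor. IFI44L and OAS1 counted as measured only through the VHL-competent array, where they are high, so their direction was set by the floor. Without any floor the median difference was 0.35 over all 41 genes and 0.03 over all 19775 genes. A limit of 1.5-fold was passed upward by 15 of the 31, or 48.4%, against 6.25% of all measured genes, and downward by none, against 6.55%. The median difference was 0.45 over the 31 genes and 0.05 over all measured genes. The 8 genes are 19.5% of the list and 3.9% of the 205 measured genes at least 2-fold higher.

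**Figure D1:**
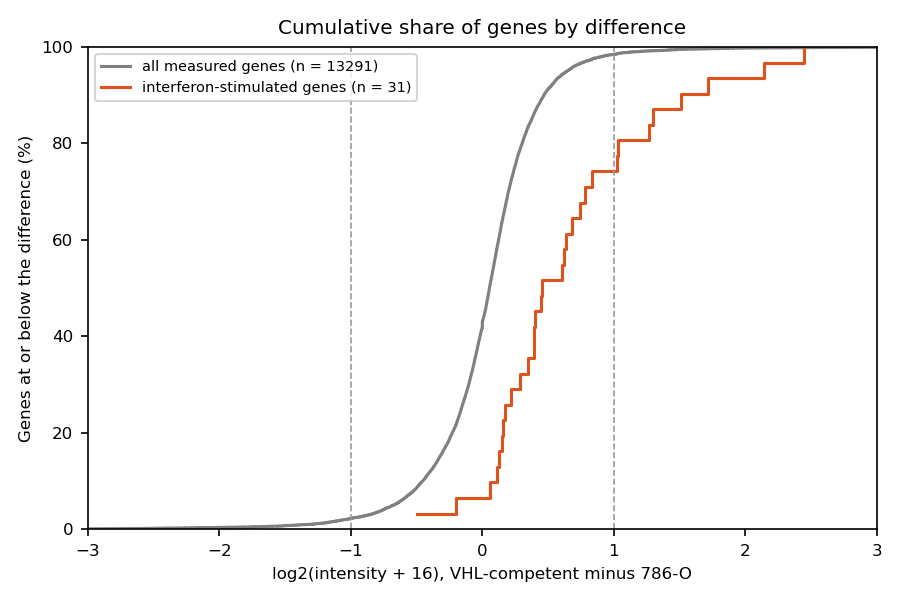
Cumulative share of genes (vertical axis, %) by their log2 difference, VHL-competent minus 786-O (horizontal axis), for 13291 measured genes (grey) and the 31 measured interferon-stimulated genes (orange), with dashed lines at 2-fold. The orange curve lies to the right of the grey over nearly its whole length, with medians of 0.45 and 0.05.

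Brighter genes of the list were also on the higher side. Of the 21 measured genes with an intensity of at least 100 in 786-O, 4 were at least 2-fold higher in the VHL-competent line and the median difference was 0.40. Over all 8021 genes at that level the share was 1.32% and the median 0.02. Differences were larger among the 10 dimmer members, of which 4 were at least 2-fold higher, with a median of 0.76. Over all 5270 dimmer genes the share was 1.88% and the median 0.09. The 10 include IFI44L and OAS1, whose direction was set by the floor.

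**Figure D2:**
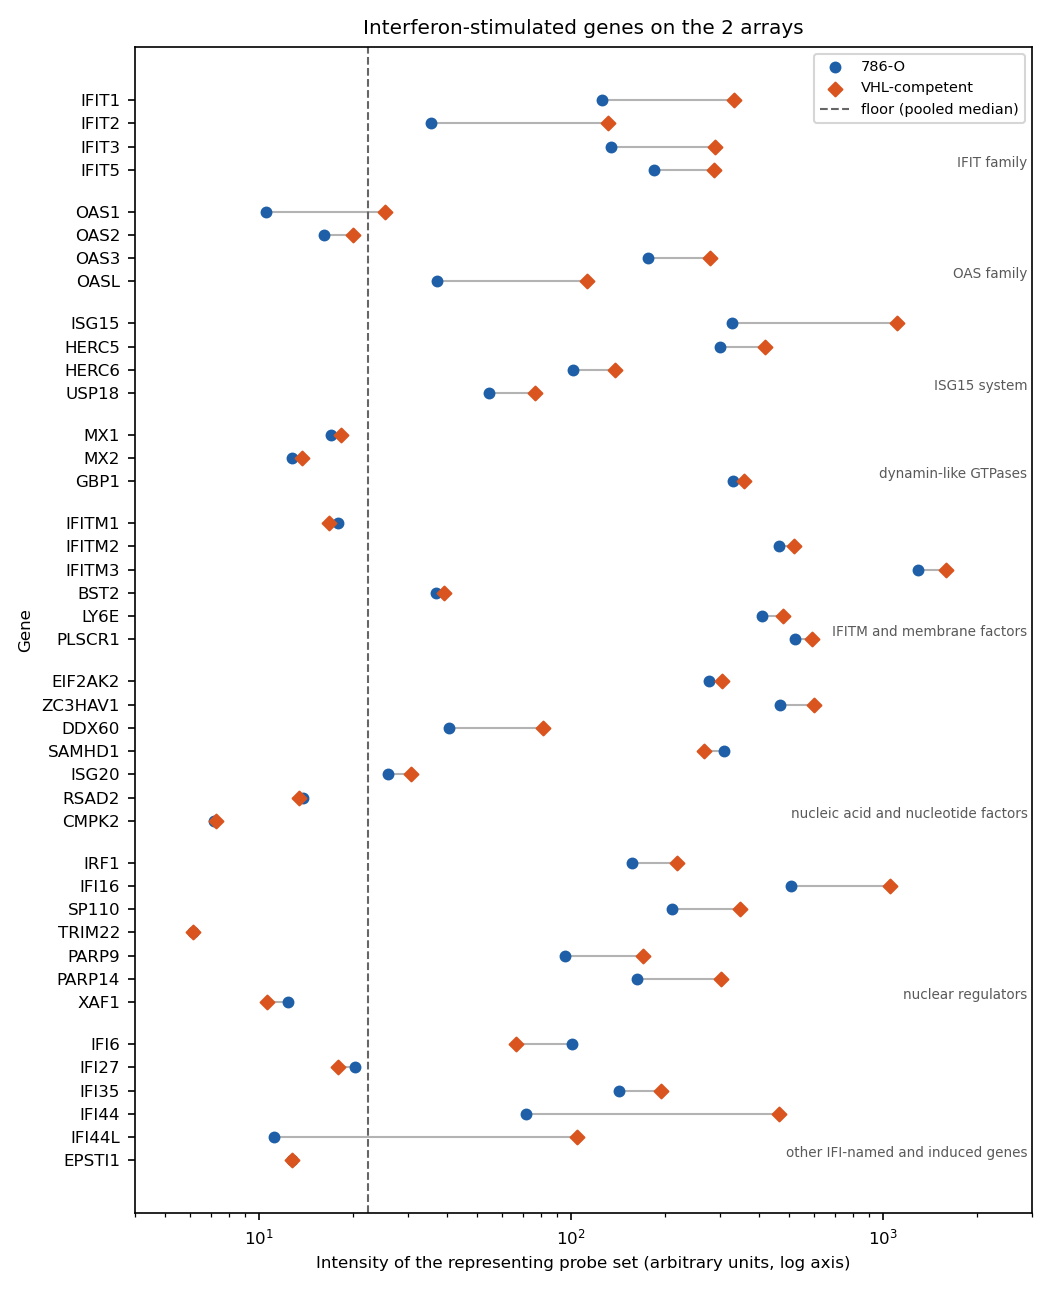
Intensity (log axis, arbitrary units) of the representing probe set of each of the 41 genes on the 786-O array (blue circles) and the VHL-competent array (orange diamonds), grouped by role, with the floor of 22.3 dashed. Orange lies to the right in 29 of the 31 genes above the floor, the exceptions being IFI6 and SAMHD1.

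The IFIT proteins bind viral RNA and hinder its translation, and all 4 members were higher in the VHL-competent line. IFIT1, which holds RNA that lacks the methylated cap of host messages, read 126 in 786-O and 333 in the VHL-competent line, a 2.46-fold difference on its single probe set. IFIT2 read 35.7 and 131 on the brighter probe set, a difference of 1.51, and 27.6 and 79.8 on the other, a difference of 1.13. IFIT3, which binds and stabilises IFIT1, read 134 and 289.6 on one and 107 and 304 on the other, differences of 1.02 and 1.39. Both probe sets of IFIT2 and of IFIT3 thus passed 2-fold. IFIT5 was the member of the family below that size, with 184 and 288 on one probe set, a difference of 0.60, and 45.1 and 50.5 on the other, a difference of 0.12.

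The OAS enzymes sense double-stranded RNA and make short oligoadenylates that activate the nuclease RNase L, whereas the related OASL lacks that activity and acts on RNA sensing. OASL read 37.3 and 113 on one probe set and 24.0 and 84.2 on the other, with differences of 1.27 and 1.33. The 2 probe sets of OASL differed by much less than the distance of either from 0. OAS1 was below the floor in 786-O at 10.5 and just above it in the VHL-competent line at 25.3, which gives at least 1.08-fold and leaves its size dependent on the pseudocount. OAS3 read 176 and 279.5, a difference of 0.62, but its dimmer probe set read 34.8 and 26.9, a difference of -0.24. All 3 probe sets of OAS2 were below the floor, the brightest at 16.1 and 20.05.

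ISG15 encodes a ubiquitin-like protein that is attached to other proteins, and it read 328 in 786-O and 1112 in the VHL-competent line, a 3.28-fold difference on its only probe set. Genes of the list grouped with it had smaller differences in the same direction. HERC5, the main ligase for ISG15 in human cells, read 301 and 418, a difference of 0.45. Its neighbour and relative HERC6 read 101 and 138, a difference of 0.40. USP18, which removes ISG15 and also dampens signalling at the interferon receptor, read 54.7 and 76.9, likewise a difference of 0.40. The modifier was therefore further apart between the arrays than HERC5, HERC6 and USP18. Enzymes of ISG15 outside the list are not covered by this comparison.

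IFI44 and IFI44L are a pair of related genes induced by interferon, and IFI44 had the highest difference of the list. IFI44 read 72.0 in 786-O and 465 in the VHL-competent line, a 5.46-fold difference that ranked 18 from the top of all 13291 measured genes, while its other probe set was below the floor at 9.59 and 10.6. IFI44L read 11.2 in 786-O, below the floor, and 104 in the VHL-competent line, so that it was at least 3.14-fold higher there. Both genes therefore rest on 1 probe set each. The other small IFI-named genes did not share this size. IFI35, which forms a complex with NMI, read 143 and 194, a difference of 0.40. IFI6, which encodes a small membrane protein with antiviral activity, was lower in the VHL-competent line, with 100.5 against 66.6 and a difference of -0.50. It had the lowest difference of the 31 measured genes. IFI27 was below the floor at 20.3 and 17.9, and EPSTI1 at 12.7 on both arrays.

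Nuclear members were all on the higher side where measured. IFI16, a sensor of DNA that also acts in transcription, was bright on 3 probe sets, which read 507 and 1051, 528 and 997, and 119 and 281, with differences of 1.03, 0.90 and 1.14. SP110, a nuclear body protein, had 5 probe sets above the floor and all were higher in the VHL-competent line, by 0.39 to 1.05. Its representing probe set read 211 and 348. All probe sets of IFI16 and SP110 end in _s_at or _x_at, the representing one of SP110 in _x_at. Those in _x_at are of a kind that can take up transcripts of close relatives, so the probe sets may not be independent readings. The ADP-ribosyltransferase family genes PARP14 and PARP9 read 163 and 303, and 95.6 and 170.5, with differences of 0.84 and 0.74, and a dimmer PARP9 probe set differed by 0.41. IRF1, a transcription factor that interferon itself induces, read 156 and 219, with differences of 0.45 and 0.26 on its probe sets. TRIM22 at 6.15 on both arrays and XAF1 at 12.4 and 10.6 were below the floor.

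Factors that act on nucleic acids or nucleotides had small and mixed differences. DDX60, a helicase-like protein linked to RNA sensing, was the furthest apart of them by representing probe set, with 40.8 and 81.5 and a difference of 0.78. ZC3HAV1, which recognises CpG-rich viral RNA, had 3 probe sets above the floor, and these differed by 0.35, 0.46 and 0.88, the last reading 82.3 and 164. EIF2AK2, the kinase PKR that halts translation when it meets double-stranded RNA, differed by 0.13 on its representing probe set at 278 and 305 but by -0.38 on another at 286 and 216. SAMHD1, which depletes the deoxynucleotide pool, read 309 and 267 and had 5 probe sets above the floor, from -0.43 to 0.03. PKR and SAMHD1 thus had no difference that was alike on all their probe sets. The exonuclease gene ISG20 read 25.9 and 30.6, close to the floor, with a difference of 0.15. RSAD2, which encodes the antiviral radical enzyme viperin, and its neighbour CMPK2 were below the floor at 13.9 and 13.4 and at 7.17 and 7.29.

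Of the membrane factors 5 were measured, and none of them was 1.5-fold apart. This is near the shares of 6.25% higher and 6.55% lower over all measured genes. IFITM3, which blocks fusion of viruses with endosomes, read 1295 in 786-O and 1586 in the VHL-competent line, a difference of 0.29. IFITM2 read 465 and 519, a difference of 0.15, on a probe set of a kind that can take up transcripts of close relatives, as does that of IFITM3. The values of the near-identical IFITM genes are therefore uncertain, and IFITM1 was below the floor at 17.9 and 16.7. LY6E, which restricts coronavirus entry, differed by 0.22 at 409 and 478, and BST2, the tether of budding virions, by 0.06 at 37.0 and 39.2. The scramblase gene PLSCR1 differed by 0.17 on one probe set and by -0.37 on the other, at 522 and 591 and at 215 and 163. Among the dynamin-like GTPases, GBP1 had 3 probe sets above the floor with differences of 0.11 to 0.22, and MX1 and MX2 were below the floor at 17.1 and 18.3 and at 12.8 and 13.7.

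**Figure D3:**
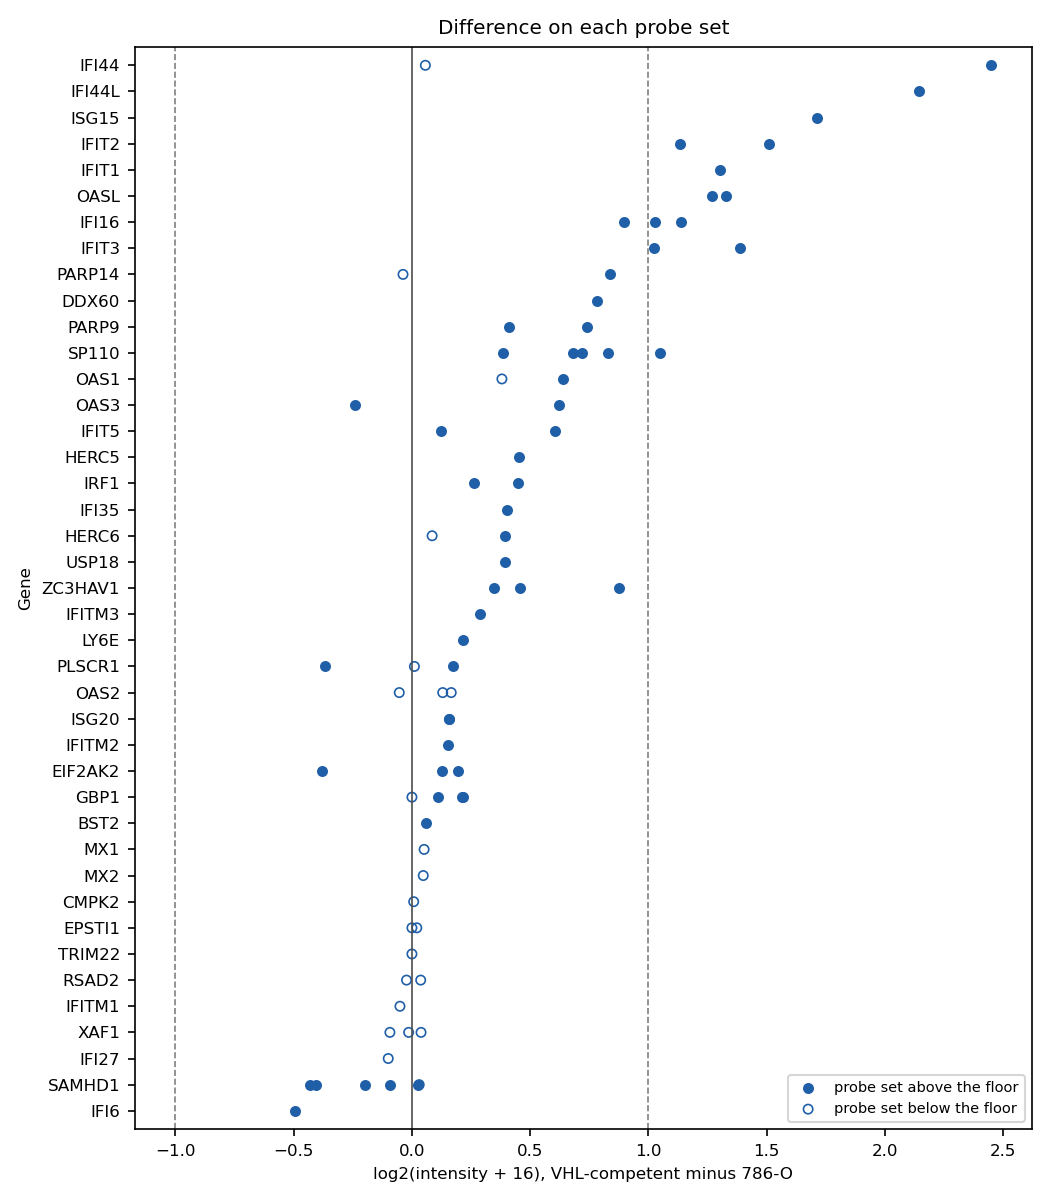
Log2 difference, VHL-competent minus 786-O (horizontal axis), on each of the 79 probe sets of the 41 genes, with filled points above the floor and open points below it, and genes in order of their representing probe set. Filled points run from -0.50 for IFI6 to 2.45 for IFI44, and OAS3, PLSCR1, EIF2AK2 and SAMHD1 have filled points on both sides of 0.

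Of the 56 probe sets above the floor 48 were higher and 8 lower in the VHL-competent line, where 54.5% of all 24414 single-gene probe sets above the floor were higher. For 1 probe set each of IFI44L, OAS1, EIF2AK2 and ISG20 the floor was passed only on the VHL-competent array. The direction of these was set by the floor. At least 2-fold higher were 13 of the 56, against 1.42% of all. In 11 of the 15 genes with several such probe sets all pointed the same way, ISG20 with its floor-set probe set among them. In IFIT2, IFIT3 and OASL all were at least 2-fold higher. Neither count was made over the 6436 genes with several probe sets, so neither can be read as particular to the list. Of all probe sets deposited, 3.89% held exactly the same value on both arrays. This was so for 1 probe set each of TRIM22, EPSTI1 and GBP1, all below the floor.

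Many of the 41 genes lie beside each other. Allowing up to 2 other protein-coding genes between them, they formed 29 regions, of which 8 held several members and 20 genes in all. Of the 29 regions 23 held a measured member. The 8 genes at least 2-fold higher came from 5 regions, namely the IFIT run on chromosome 10, the IFI44L and IFI44 pair on chromosome 1, and the separate loci of ISG15, IFI16 and OASL. The pair IFI44L and IFI44 lay between PTGFR, at -0.90, and ADGRL2, at 0.50. The IFIT run lay between LIPA, at 0.68, and PANK1, at 0.72, and the next genes outward, FAS and KIF20B, were at -0.49 and -0.09. The median difference of the 32 measured genes that flank the 8 runs was 0.06, near that of all genes. None of them was 2-fold apart, which is also near the shares over all measured genes, 1.54% higher and 2.18% lower. DTX3L, which lies between PARP9 and PARP14 and encodes a ubiquitin ligase that pairs with PARP9, differed by 0.62, while PARP15 beside it was below the floor.

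**Figure D4:**
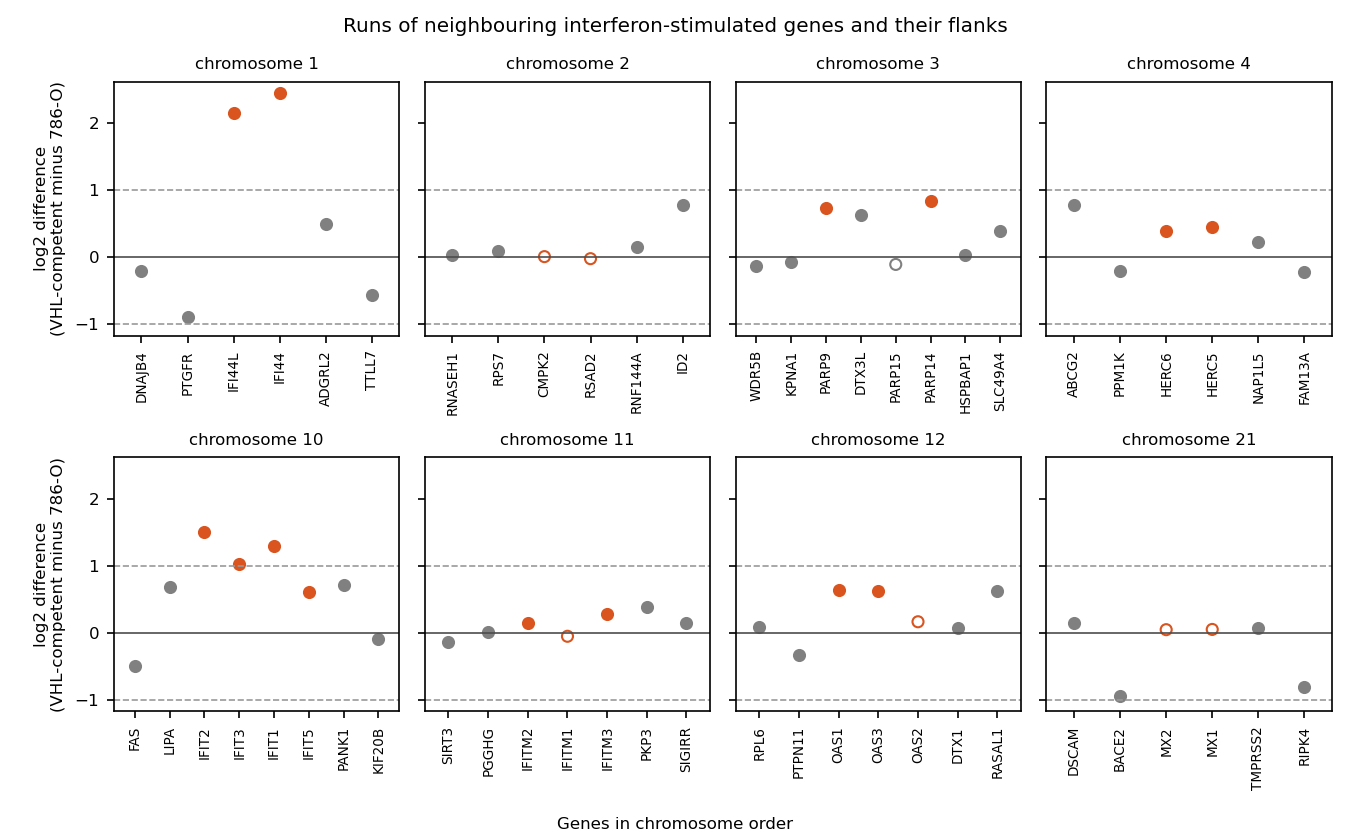
Log2 difference, VHL-competent minus 786-O (vertical axis), of genes in chromosome order for the 8 runs of neighbouring interferon-stimulated genes (orange) with the 2 nearest measured genes on each side and genes between them (grey), where open points are below the floor. The IFI44L and IFI44 pair and 3 of the 4 IFIT genes lie above the dashed 2-fold line, and no flanking gene reaches it in either direction.

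Promoter sequences of RefSeq (GRCh38.p14) were found for 33 of the 41 genes, and the others were IFIT2, OAS2, OASL, USP18, MX2, IFITM2, LY6E and TRIM22. The core of the interferon-stimulated response element was searched as GAAA, any 2 bases, then GAAA, on both strands, in the 250 bases before each transcript start, and overlapping matches were counted separately. It was present for 22 of the 33 genes, or 66.7%, against 3.71% of all 27305 genes with a promoter in the table. By promoter, the shares were 56.5% of 46 and 3.02% of 35116. The match was found in 5 of 6 genes at least 2-fold higher in the VHL-competent line, in 12 of 20 measured genes under that size and in 5 of 7 genes below the floor. Genes with the match were thus found among those that were at least 2-fold higher, those that were not and those below the floor.

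The following windows are shown because they carry the match in genes that were at least 2-fold higher, read 5′ to 3′ along the gene, with each match in capitals. They lie at chr1:1013364-1013419 for ISG15 (+ strand), chr10:89392487-89392549 for IFIT1 (+), chr10:89327821-89327904 for IFIT3 (+), chr1:78649751-78649788 for IFI44 (+) and chr1:78620355-78620404 for IFI44L (+). In ISG15 a pair of matches overlaps, IFIT1 and the IFIT3 promoter shown have 2 each in the opposite orientation, and IFI44L has 2, of which the one nearer to the start is shown. IFIT3 has another promoter in the table, also with 2 matches, and IFI44 has another whose 250 bases hold the match shown here.
ISG15: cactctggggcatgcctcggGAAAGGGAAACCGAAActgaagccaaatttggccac
IFIT1: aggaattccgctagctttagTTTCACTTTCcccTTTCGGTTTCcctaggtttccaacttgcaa
IFIT3: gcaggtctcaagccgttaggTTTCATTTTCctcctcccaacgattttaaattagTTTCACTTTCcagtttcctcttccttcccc
IFI44: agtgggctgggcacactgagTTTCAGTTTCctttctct
IFI44L: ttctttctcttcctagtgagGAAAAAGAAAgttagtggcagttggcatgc

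The next windows are shown for contrast, from genes with the same letters and no 2-fold difference, or a level below the floor. IFI6, lower in the VHL-competent line, has 3 matches at chr1:27672256-27672368 (- strand), and HERC5, with a difference of 0.45, has 3 at chr4:88456974-88457074 (+). BST2, at 0.06, has an overlapping pair at chr19:17405725-17405780 (-), and IFITM3, at 0.29, has 2 at chr11:320866-320932 (-). RSAD2, below the floor on both arrays, has 1 at chr2:6877612-6877661 (+).
IFI6: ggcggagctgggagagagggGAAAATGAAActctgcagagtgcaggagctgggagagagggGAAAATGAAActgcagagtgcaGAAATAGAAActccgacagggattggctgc
HERC5: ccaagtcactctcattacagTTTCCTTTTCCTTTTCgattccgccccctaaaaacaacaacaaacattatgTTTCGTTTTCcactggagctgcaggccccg
BST2: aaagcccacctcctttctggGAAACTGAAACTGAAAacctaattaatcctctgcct
IFITM3: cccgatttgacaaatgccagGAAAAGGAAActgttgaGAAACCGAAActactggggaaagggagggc
RSAD2: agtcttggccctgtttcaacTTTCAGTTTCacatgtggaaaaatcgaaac

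No match was found before the starts used for IFI16, SP110, OAS1, IRF1, EIF2AK2, HERC6, ZC3HAV1, SAMHD1, CMPK2, XAF1 or IFI35. This says only that these letters are not in those windows.

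Genes that carry the interferon signal had a median near 0. Of 36 genes for interferons, receptors, kinases, transcription factors, brakes and sensors 34 had a probe set and 29 were measured, with a median difference of -0.04. By representing probe set, none of the 29 was 2-fold apart. This is near the shares of 1.54% higher and 2.18% lower over all measured genes. Other probe sets could be further apart, running from -1.40 to 0.24 for MAVS and from -1.10 to -0.10 for STAT3. Those of IFNAR2 ran from -0.89 to 0.0. The interferon genes IFNA1, IFNB1, IFNG and IFNL1 were below the floor on both arrays, at 5.49 to 15.3. The receptor subunit genes IFNAR1 and IFNAR2 differed by 0.30 and -0.06, and IFNGR2, a subunit of the receptor for interferon gamma, by 0.64 at 485 and 765. Of the kinases, JAK1 differed by 0.36 and TYK2 by -0.46. IRF9, the DNA-binding partner of the STAT proteins, read 109 and 104, a difference of -0.06. Of the regulators, IRF7 differed by -0.37 at 38.1 and 25.8 and IRF8 by 0.41. Among brakes the phosphatase gene PTPN2 was lowest at -0.43 and PIAS1 highest at 0.14. Among sensors CGAS was lowest at -0.52, and TLR3 was highest, at least 1.27-fold higher from below the floor.

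Other interferon-induced genes outside the list went further. Of 35 such genes 32 had a probe set and 29 were measured, 21 higher and 8 lower in the VHL-competent line, with a median of 0.26, where 56.8% of all measured genes were higher. Against 1.54% of all measured genes, 4 were at least 2-fold higher, namely PSMB9, an immunoproteasome subunit, at 155 and 557, APOL6 at 50.5 and 183, the antiviral gene SAMD9L, at 22.2 and 86.7, and the trypanolytic factor gene APOL1, at 250.1 and 635. Their differences were 1.75, 1.58, 1.43 and 1.29, but the probe sets of APOL6 ranged from -0.77 to 1.58. SAMD9L and BATF2 counted as measured only through the VHL-competent array, so their direction was set by the floor. With 786-O just below the floor, SAMD9L was at least 2.68-fold higher. None of the 29 was 2-fold lower by its representing probe set. TNFSF10, which encodes the death ligand TRAIL, was the lowest at -0.91, at 1959 and 1033, with probe sets down to -1.67. So interferon-induced genes as a class did not all lie on one side.

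**Figure D5:**
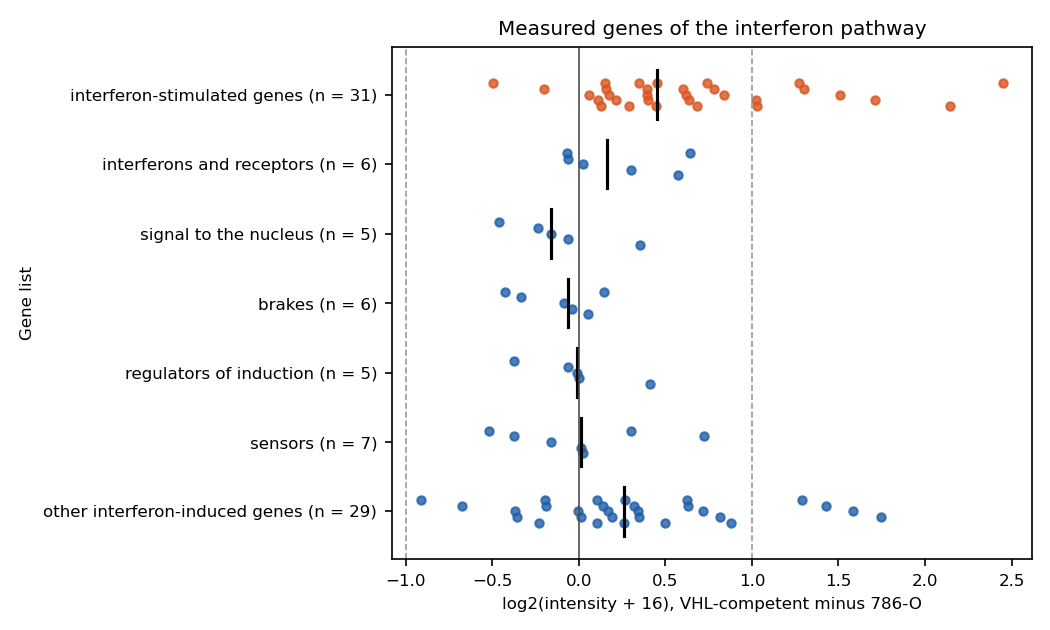
Log2 difference, VHL-competent minus 786-O (horizontal axis), of each measured gene in the interferon-stimulated list (orange) and 6 other lists of the pathway (blue), with the median of each as a black bar and dashed lines at 2-fold. Medians are 0.45 for the interferon-stimulated genes, 0.26 for other induced genes and from -0.16 to 0.16 for the 5 lists of signalling genes.

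Of 10 markers of kidney tubule epithelium 8 were measured. Of these 6 were higher and 2 lower in the VHL-competent line, where 56.8% of all measured genes were higher. The kidney transcription factor gene PAX8 read 1521 and 1068 and the keratin gene KRT18 5315 and 4960, the 2 that were lower. The 8 probe sets of PAX8 above the floor ran from -1.08 to -0.29. The brush-border aminopeptidase gene ANPEP read 256 and 535, a difference of 1.02, and 1.54% of all measured genes were at least 2-fold higher. The brush-border receptor genes LRP2 and CUBN were below the floor. Leukocytes can carry high levels of the same interferon-stimulated genes. Of 8 leukocyte markers with a probe set only CD3D was measured, at 20.1 and 25.8, close to the floor, and PTPRC was below it at 11.3 and 12.1. The summed intensity of the 8 was 105 in 786-O and 121 in the VHL-competent line. Of 4 plasmacytoid dendritic cell markers 3 were measured, IL3RA and LILRA4 at no more than 33.0 and TCF4 at 112 and 75.5, while CLEC4C was below the floor, and the 4 summed to 176 and 143. Endothelial markers summed to 86.5 and 107 over 5 genes, of which 3 were just above the floor, and 5 fibroblast markers to 153 and 149.9, of which only COL1A1 was measured.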

How the data were processed

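Total RNA of each line was extracted with Trizol and labelled with biotin, per the labels' protocols, and hybridised to 1 array. Per their range, the deposited values are linear intensities, 1 for each of 54613 probe sets, with array medians of 21.97 and 22.58. The submitters' processing notes name R 2.10 and no other tool. The background correction, normalization and probe summary were not given in the sources used here, and any of them could compress or shift differences. Of the probe sets 41091 name a single gene, and symbols were updated by Entrez number. Probe sets naming several genes were not used.

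Values were taken as log2(intensity + 16), with the floor and gene rule given above. The fold limits were 2, 4 and 1.5. Alternatives varied the pseudocount, floor, probe sets and normalization. Members and lists were chosen with earlier results of these data known. All 41 members may be named, and of the other lists the genes 2-fold apart, the highest, the lowest and preset signalling genes. A few others are named where another probe set or the floor limits a count. Gene order came from GRCh38.p14. The computation was tested on simulated data. Python 3.11.15, numpy 2.4.6, pandas 2.3.3, statsmodels 0.14.6 and matplotlib 3.10.9 were used.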

Additional observations from a re-analysis of the deposited data

How the results depend on the processing

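No paired analysis was possible because only 1 array was made of each line, so no replicate could be left out either. Over 8 alternatives (pseudocounts of 1 and 64, no floor, the median over probe sets, a higher floor at the 75th percentile, no probe sets ending in _s_at, _x_at or _a_at, quantile normalization, and removal of the intensity trend) the median of measured members ranged from 0.35 without a floor to 0.53 with the higher floor, and none of them was 2-fold lower. With a pseudocount of 64 the members at least 2-fold higher were 4 (IFI44, IFI44L, IFIT1 and ISG15), against 110 genes higher and 146 lower in all. Without suffixed probe sets 20 members were measured and 5 were at least 2-fold higher (IFI44L, IFIT1, IFIT2, IFIT3 and OASL), since ISG15, IFI16 and IFI44 are represented by such probe sets. With the trend removed 6 were, IFIT3 and IFI16 falling below the limit, and with a pseudocount of 1 there were 9, OAS1 being added. At 1.5-fold, 15 members were higher, against 831 genes higher and 871 lower in all. Of 2 settings chosen after the data were seen, counting each run of neighbours once gave 5 of the 23 regions with a measured member. No like count was made over all genes. Leaving out the IFIT run and the IFI44 pair gave a median of 0.40. Leaving aside the settings of the floor, which cannot move the value of a single gene, 165 of 175 alternative values of members moved by less than the SD between probe sets, and 2 changed sign, 1 each for PLSCR1 and SAMHD1. The 8 members at least 2-fold higher stayed positive in all 45 of these values and at least 2-fold in 39. They were picked for being high, and every setting reuses the same 2 arrays, so these counts are no independent check. Some of the values could not move, as with the median over probe sets for genes with 1 probe set above the floor. Causes were otherwise not tested.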

Other observations

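Close relatives of the members were chosen after the member values were seen. Among them SP100, GBP2, GBP3, PARP10, PARP12 and TRIM5 were also counted with the other interferon-induced genes above. Of 28 relatives 25 had a probe set and 17 were measured, with a median of 0.17, none at least 2-fold higher in the VHL-competent line and 1 at least 2-fold lower, against 1.54% and 2.18% of all measured genes. That gene was TRIM6, a tripartite-motif ubiquitin ligase gene, at 225 in 786-O and 80.0 in that line, a difference of -1.33, while its relative TRIM5, which restricts retroviral capsids, differed by 0.27. PARP12, an interferon-induced ADP-ribosyltransferase gene, was the highest at 0.88, with 136 and 263. GBP3, a neighbour of GBP1, was bright at 1206 and 751 and differed by -0.67, whereas GBP2 read 24.95 and 24.85, and GBP4 and GBP5 were below the floor. DDX60L, next to DDX60, read 23.8 and 36.5, a difference of 0.40. AIM2, PYHIN1 and MNDA, the relatives of IFI16, were below the floor on both arrays.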
